A study of Mus musculus with 14 samples.

Results

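Broad H3K27ac domains are the widest stretches of acetylated chromatin in muscle stem cells (MuSCs). They were selected on width alone, as the peaks of 10000 bp or more in the consensus H3K27ac list of vehicle-treated cells. Of 67790 peaks in that list, 422 were broad domains. They covered 6.19 Mb, or 4.77% of all the H3K27ac sequence listed, in peaks whose median width was 12400 bp against 1400 bp over the whole list.

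H3K27ac was mapped together with pSMAD1/5/9 and SMAD4 by CUT&Tag, in which an antibody on chromatin directs a transposase that cuts and tags the DNA beside it. MuSCs came from limb, back and breast muscle of female 9-week-old mice of the genotype C57BL/6N(Tg(Pax7-EGFP)Tajb). They were enriched by sorting for GFP, expanded in culture, and kept for 6 h without serum in 200 ng/mL soluble BMPR1A before 1 h in 100 ng/mL BMP6, or in a vehicle of 4 mM HCl and 0.1% BSA. Each antibody and condition had 2 biological replicates of 100000 fixed cells, combined by the authors into 1 consensus peak list. All groups carry the reporter transgene, in which Pax7 sequence drives GFP, and signal from any Pax7 sequence it holds cannot be told apart from that of the Pax7 locus. The sort selects cells with an active Pax7 reporter, but the cells were cultured afterwards, so quiescent, activated and committed cells cannot be told apart in the lists.

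H3K27ac marks active promoters and enhancers. Stretches of it that run for many kilobases are known to gather at genes that define a cell's identity, where enhancers and often a promoter lie side by side. BMP6 binds type I and type II receptors, which phosphorylate SMAD1, SMAD5 and SMAD9; these enter the nucleus with SMAD4, which is shared with the TGF-β branch, and bind enhancers and promoters. In MuSCs, BMP signalling is known to hold back differentiation, in part through the Id proteins, which tie up the E protein partners of the myogenic factors.

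Sequences at pSMAD1/5/9 sites inside domains are shown first, each the strongest of its own domain and not of all domains. The windows are 200 bases of GRCm39, plus strand, centred on the summit of the strongest pSMAD1/5/9 peak of BMP6-stimulated cells in 6 of the 10 domains with the most such peaks (ties by width), picked with their values seen so as to show both kinds of site. In the first 4, that peak overlapped a pSMAD1/5/9 peak of vehicle-treated cells, and in the last 2 it did not. Capitals mark matches on either strand to letters known from factors in these cells: GGCGCC or the related GGAGCC for SMADs, then CAGCTG for the myogenic factors, with TGACTCA for AP-1.
Cirbp, chr10:79997554-79997753: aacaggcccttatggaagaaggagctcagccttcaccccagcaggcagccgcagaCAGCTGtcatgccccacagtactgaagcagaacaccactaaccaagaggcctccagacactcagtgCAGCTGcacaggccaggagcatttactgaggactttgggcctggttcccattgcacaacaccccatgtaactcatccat
Lmna, chr3:88399843-88400042: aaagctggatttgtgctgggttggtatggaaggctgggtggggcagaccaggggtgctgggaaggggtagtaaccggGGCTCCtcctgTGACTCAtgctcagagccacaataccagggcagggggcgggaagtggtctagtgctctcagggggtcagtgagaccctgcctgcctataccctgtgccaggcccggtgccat
Pax7, chr4:139561017-139561216: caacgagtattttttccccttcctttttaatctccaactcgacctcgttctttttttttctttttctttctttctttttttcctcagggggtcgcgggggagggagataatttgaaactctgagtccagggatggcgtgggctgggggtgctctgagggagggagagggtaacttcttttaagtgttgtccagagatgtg
Plec, chr15:76091451-76091650: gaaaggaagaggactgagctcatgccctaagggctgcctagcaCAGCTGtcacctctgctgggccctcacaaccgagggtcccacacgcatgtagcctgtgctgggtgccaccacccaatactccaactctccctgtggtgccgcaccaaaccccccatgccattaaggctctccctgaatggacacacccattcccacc
Vgll4, chr6:114870962-114871161: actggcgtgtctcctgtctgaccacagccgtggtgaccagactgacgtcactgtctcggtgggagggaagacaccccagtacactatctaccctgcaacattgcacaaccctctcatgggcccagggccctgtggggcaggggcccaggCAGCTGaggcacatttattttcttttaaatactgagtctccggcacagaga
Sspn, chr6:145956022-145956221: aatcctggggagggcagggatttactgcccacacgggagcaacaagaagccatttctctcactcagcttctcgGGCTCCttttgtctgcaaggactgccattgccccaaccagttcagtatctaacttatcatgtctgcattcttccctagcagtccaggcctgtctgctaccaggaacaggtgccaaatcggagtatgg

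The Cirbp window lies in the body of the gene outside its exons, and its peak ranked 2 by signal among all 7339 listed for pSMAD1/5/9 with BMP6. The Lmna peak ranked 7, also outside the exons, 10978 bp from the TSS. The Pax7 peak ranked 48 and its summit lay 278 bp from the TSS of the gene. The Plec window (rank 141) and the Vgll4 window (rank 73) lie in gene bodies outside the exons, 11641 bp and 27736 bp from the TSS. The Sspn window (rank 464) is intergenic, 76289 bp from the nearest TSS, that of Sspn. Of the 9 such domains whose window could be shown, the peak overlapped a SMAD4 peak with BMP6 in 9 and with vehicle in 8, the exception being that of Irf2bpl, which is not printed.

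Over the whole set, matches were counted in windows of the same length. CAGCTG was in 36.1% (95% Wilson interval 32.7 to 39.6) of the 737 pSMAD1/5/9 windows in domains, 35.2% of the 1592 in H3K27ac peaks of 5 to 10 kb and 31.1% of all 7339 windows. GGAGCC was in 26.5%, 22.9% and 25.2% of the same windows, and TGACTCA in 16.3%, 19.3% and 15.5%. GGCGCC was in 5.70%, 7.29% and 7.75%. No comparison of these shares was tested, and a match is no evidence of binding.

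Some regulators of MuSCs had their TSS in a domain, while most of those listed did not. Of 44 listed MuSC and myogenic regulators, 12 had their TSS in a domain, which is 27.3%, against 0.85% of all 21757 protein-coding genes (no test was made on the lists, which were chosen with results known). Among them were Pax7 and Pax3, the paired box factors of the lineage; Myf5, Myf6 and Myog, 3 of its basic helix-loop-helix factors; Mef2d, Tcf4, Nfix and Runx1, further transcription factors; and Itga7, a laminin receptor subunit of the MuSC surface. A further 4 of the 44 had part of their body, but not their TSS, in a domain. H3K27ac of any width was listed at the TSS of 41 of the 44, whereas the 0.85% counts all genes, also those without H3K27ac. Among lists that name other cell types, fibro-adipogenic progenitors, endothelial cells, macrophages and leukocytes, tendon cells, Schwann cells, neurons and hepatocytes had no marker with its TSS in a domain, of 3 to 7 genes each. Of 12 MuSC markers 3 did (Pax7, Myf5 and Itga7), of 10 muscle fibre markers 1 did (Acta1, skeletal actin), and of 5 markers of pericytes and smooth muscle 2 did (Cspg4 and Notch3). Whether other cells in the cultures contributed to the Cspg4 and Notch3 domains was not tested. At any width, H3K27ac within 2 kb of the TSS was listed for 10 of 12 MuSC markers, 8 of 10 muscle fibre markers, 3 of 5 markers of pericytes and smooth muscle, 2 of 7 of fibro-adipogenic progenitors, 1 of 6 of endothelial cells, 2 of 6 of macrophages and leukocytes, 2 of 3 of tendon cells, 1 of 4 of Schwann cells, 1 of 4 of neurons and 0 of 3 of hepatocytes.

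Genes of signalling pathways were also found in domains. Of 40 BMP and SMAD pathway genes, 4 had their TSS in a domain (10.0%, against 0.85% of all protein-coding genes). These were Id1, Id2 and Id3, which are inhibitors of helix-loop-helix factors, and Smad7, an inhibitory SMAD. Notch3, a receptor, was the only one of 26 Notch pathway genes (3.8%). Of 38 genes of the actin cytoskeleton and adhesion 9 did (23.7%). Among these were Acta1, Actn4, an actin crosslinker, Zyx, a focal adhesion protein, and Lmna, which encodes the nuclear lamins A and C. The remaining lists gave 4 of 32 immediate early genes (12.5%, Fosl2, Junb, Klf6 and Zfp36) and 3 of 42 extracellular matrix genes (7.1%, among them Sparc and Bgn). They also gave 1 of 34 growth factor receptor and feedback genes (2.9%, Vegfa) and 2 of 23 housekeeping genes (8.7%, Gapdh and Pkm). The lncRNA genes Malat1, Neat1 and H19 also started in domains, of 21900 bp, 23500 bp and 12300 bp.

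Whether most domains held a promoter depended on the transcripts counted. The canonical TSS of a protein-coding gene lay in 153 of 422 domains (36.3%, 95% Wilson interval 31.8 to 41.0), against 14.3% of all vehicle H3K27ac peaks and 28.3% of those of 5 to 10 kb. Another 220 domains (52.1%) overlapped a gene body only, 191 of these lying wholly inside 1 gene, and 49 (11.6%) were intergenic. Of the 269 domains without a canonical TSS, 95 held the TSS of another protein-coding transcript, which brings the share with any TSS to 58.8%. In total 185 genes had their TSS in a domain, with up to 6 in a single domain. In the 129 domains with 1 TSS, the median share of the domain on the transcribed side of it was 81.6%, against 73.7% in the 616 peaks of 5 to 10 kb with 1 TSS. GC content differed little, with a median of 49.6% in domains and 48.8% in peaks of 5 to 10 kb, and within domains of 51.7% with a TSS and 48.4% without.

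Domains also lay near each other. With gaps of at most 50000 bp, 126 of the 422 fell into 56 runs, of which 10 held 3 or more domains. The longest run, chr4:139409801-139569600, held 6 domains that reached from the Pax7 promoter through its gene to sequence nearest to the TSS of Tas1r2, with 149500 of its 159800 bp in domains. Its domains held 20 pSMAD1/5/9 peaks with BMP6 and 10 with vehicle, and 33 and 24 SMAD4 peaks. A run of 4 domains lay in the body of Msi2, an RNA-binding protein gene, and the runs of 3 included those at Runx1, Jph2 and Actn4. In the Actn4 run all 47200 bp lay in domains, and in the run of 2 domains nearest to Klf14 51500 of 52100 bp did. Some runs are thus nearly unbroken stretches that the list divides. Nearness was not compared with that of other H3K27ac peaks. A miRNA gene lay in 16 domains. Among these, chr1:20735601-20751600 (16000 bp, named after its content was seen) held Mir206 and the lncRNA gene Lincmd1, both known from muscle differentiation, with 1 pSMAD1/5/9 peak with BMP6 and none with vehicle.

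The widest domain, chr15:102853301-102896500, held the TSS of Hoxc11, Hoxc10 and Hoxc9, homeobox genes of the body axis. It was 43000 bp and 43200 bp in the replicate columns of the vehicle list and 43400 bp and 43190 bp in those of the BMP6 list. The Hoxa domain (chr6:52179301-52218100, 38800 bp) held 6 TSS, and with BMP6 its main peak was 30310 bp. Next after Hoxc came a domain inside Atg4a, an autophagy protease gene, on chromosome X (43000 bp), an intergenic domain 43839 bp from the TSS of Ppara (40300 bp), and the Pax7 domain (38800 bp). Nfix, which drives the fetal muscle programme, had a domain at its TSS (36500 bp) and another in its body (30500 bp). The others of the 15 widest lay in the bodies of Vgll4, a TEAD cofactor (36900 bp), Jph2, a junctional membrane protein (35200 bp), Aopep (32900 bp) and Mbnl2, a splicing regulator (31700 bp), at the TSS of Mtss2 (34300 bp), Cxxc5 (32400 bp) and Kirrel1 (28800 bp), and 110888 bp from the TSS of Klf14 (33800 bp).

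Domain widths were closely matched between replicates. The median difference between the replicate columns of the vehicle list was 200 bp, or 1.29% of the width, and 387 of 422 domains reached 10000 bp in both. At the threshold, the narrowest domains, each of 10000 bp, were nearest to Lrrfip1, Itga7 and Vps53, and the widest peaks left out, each of 9900 bp, were nearest to Cdkn1b, E2f8 and Snx25. With BMP6 these peaks were 11200, 15120 and 7770 bp wide inside the threshold and 10080, 16100 and 11620 bp wide outside it. Within 500 bp of the threshold lay 57 peaks on its upper side and 66 on its lower side, so it divides a continuous range.

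All 422 domains overlapped H3K27ac peaks of BMP6-stimulated cells, and a median of 99.4% of a domain was covered. The main BMP6 peak, the one with the largest overlap, was 10000 bp or more in 360 domains (85.3%, 95% Wilson interval 81.6 to 88.4). Its median width was 13760 bp, and the median ratio to the domain's width was 1.03. The BMP6 list itself was divided otherwise: 127 domains were covered by 2 to 5 BMP6 peaks, while 7 BMP6 peaks each served as the main peak of more than 1 domain, 14 domains in all. In the other direction, 688 of 78050 BMP6 peaks were 10000 bp or more, and 358 of them had a vehicle domain as their main peak. Of the 688, 468 overlapped 2 or more vehicle H3K27ac peaks. The domains were chosen on vehicle width, which favours peaks that are wide in that list, and peak ends fall on steps of 100 bp in both vehicle columns and of 140 bp and 70 bp in the BMP6 columns, so widths are given as a description with no test.

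Both replicate widths were larger with BMP6 than both vehicle widths in 215 domains (50.9%) and smaller in 125 (29.6%). Over all vehicle H3K27ac peaks, 38.1% were wider and 13.7% narrower by the same rule, and in those of 5 to 10 kb 47.1% and 28.1%. The Pax7 domain was 38500 bp and 38700 bp with vehicle and 65100 bp and 64960 bp with BMP6. That BMP6 peak (chr4:139502301-139567400) is also the main peak of the neighbouring vehicle domain, chr4:139502301-139530500. It lies within the outer ends of these 2 domains, which the vehicle list calls separately. Its larger width is therefore not a longer acetylated stretch. The Id1 domain was 9800 bp and 9900 bp in the vehicle columns and 20440 bp and 20020 bp in the BMP6 columns, and that of Bgn, a matrix proteoglycan, 10400 bp and 10500 bp against 25760 bp in both. Widths did not overlap for either gene, and the same held in the opposite direction for Myog, with 12400 bp and 12500 bp against 7840 bp and 7210 bp. Whether the wider BMP6 peaks at Id1 and Bgn join stretches that the vehicle list calls separately was not tested. The main BMP6 peak was at least 1.5 times as wide as the domain in 47 cases, and the domain at least 1.5 times as wide as its main BMP6 peak in 26. Among the 11 domains of MuSC and myogenic regulators, 6 were wider, 3 narrower (among them Mef2d and Myog) and 2 overlapped. The wider ones included Nfix, Runx1, Pax3 and Itga7, and also Pax7, by the joined BMP6 peak.

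**Figure D1:**
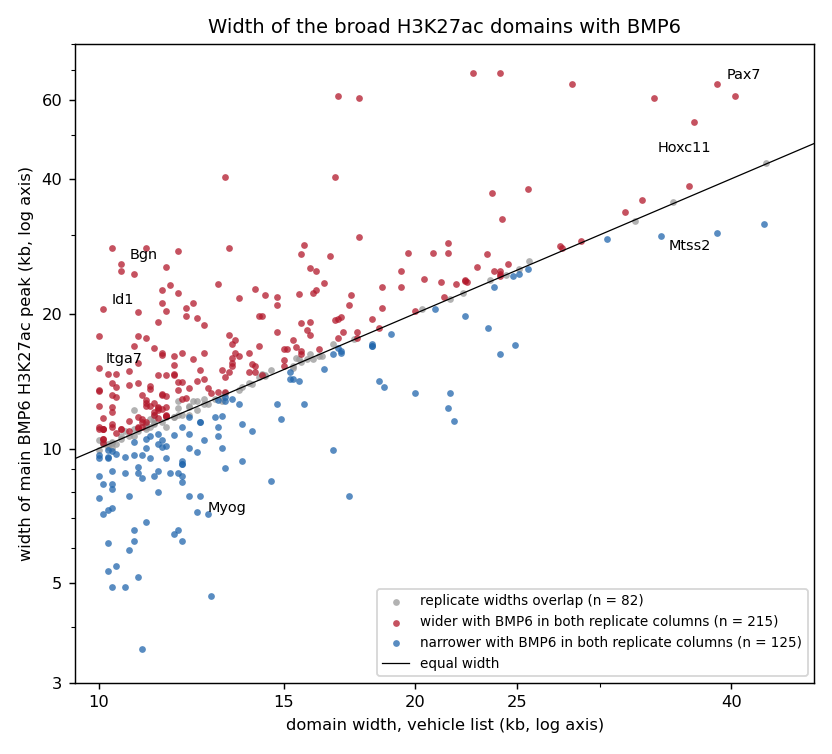
Width of each of the 422 domains in the vehicle list (horizontal axis, kb, log scale) against the width of its main BMP6 H3K27ac peak (vertical axis, kb, log scale). Red points (215) were wider and blue points (125) narrower in both replicate columns, grey points (82) overlapped, and the line marks equal width; many points lie near the line, and the 4 widest BMP6 peaks are each the main peak of 2 domains.

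Signal ranks were less stable than widths. A rank is the place of a peak by signal within its own list, 1 being the strongest, and the signal of a consensus peak is the sum of both replicates. The domains were among the strongest peaks of the vehicle list, with a median rank of 659 of 67790. They made up 53 of the 100 strongest peaks, and 406 of 422 domains were in the strongest 10%. Over all vehicle peaks, width and signal rose together (Spearman's rho 0.79). High ranks therefore follow in part from the choice on width. In the BMP6 list, the main peak had a median rank of 626 of 78050 over the 422 domains. It was among the 100 strongest for 61 domains, with a peak shared by 2 domains counted for each. Within the domains, however, the order was loose: Spearman's rho between replicate columns was 0.30 with vehicle over 422 domains and 0.15 with BMP6 over their 415 main peaks, against 0.85 and 0.83 over all peaks of each list. These are descriptions across peaks of the same libraries, and the domains span a narrower range of ranks than the whole list. In 271 domains the replicate columns placed the domain at percentiles that differed by more than 2 times, so ranks between conditions are read only where the replicates do not overlap.

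The Myf5 and Myf6 domain (chr10:107319501-107341100, 21600 bp) had rank 1 with vehicle and 14 with BMP6. Its replicate percentiles were 0.0221 and 0.00443 with vehicle and 0.582 and 0.0154 with BMP6, which overlap. The Klf14 domain moved from rank 527 to 4, but its replicate columns stood at 0.320% and 4.67% with vehicle and at 2.04% and 0.00128% with BMP6, and they overlap too. Pax7 (ranks 68 and 17) overlapped likewise. Of the 15 widest domains, 3 ranked lower with BMP6 without overlap and 1 higher. The Atg4a domain (ranks 8 and 1728) stood at 0.00443% and 0.128% with vehicle and 1.06% and 4.03% with BMP6. The Mtss2 domain (ranks 6 and 52) stood at 0.0103% and 0.0339% against 2.45% and 0.0423%, and the Kirrel1 domain (ranks 23 and 212) at 0.0177% and 0.305% against 0.370% and 0.423%. The Vgll4 domain (ranks 70 and 3) went the other way, from 0.125% and 0.139% to 0.0295% and 0.00384%.

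Of the 422 domains, 68 (16.1%) ranked higher with BMP6 without overlap and 56 (13.3%) ranked lower, against 30.0% and 6.5% of all vehicle H3K27ac peaks. In those of 5 to 10 kb the shares were 16.3% and 10.8%, closer to those of the domains. The 4 domains of BMP pathway genes included 2 of the 68, Id3 and Id1. Id3 stood at 5.43% and 4.45% with vehicle and at 0.511% and 0.287% with BMP6, at nearly equal width (15700 bp in both vehicle columns, 15820 bp and 15610 bp with BMP6). Id1 stood at 7.64% and 5.69% against 1.13% and 0.127%, with a main BMP6 peak of 20440 bp against a domain of 10100 bp. Id2 and Smad7 overlapped. None of the 11 domains with the TSS of a MuSC or myogenic regulator ranked higher or lower without overlap. Domains in the bodies of these genes were not counted among them. In the body of Pax7, chr4:139502301-139530500 (ranks 273 and 17) and chr4:139477501-139501900 (ranks 2595 and 327) ranked higher without overlap. The first shares its main BMP6 peak with the domain at the Pax7 TSS. Vegfa, a growth factor gene, ranked lower, at 1.22% and 1.07% with vehicle and 3.31% and 7.76% with BMP6.

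**Figure D2:**
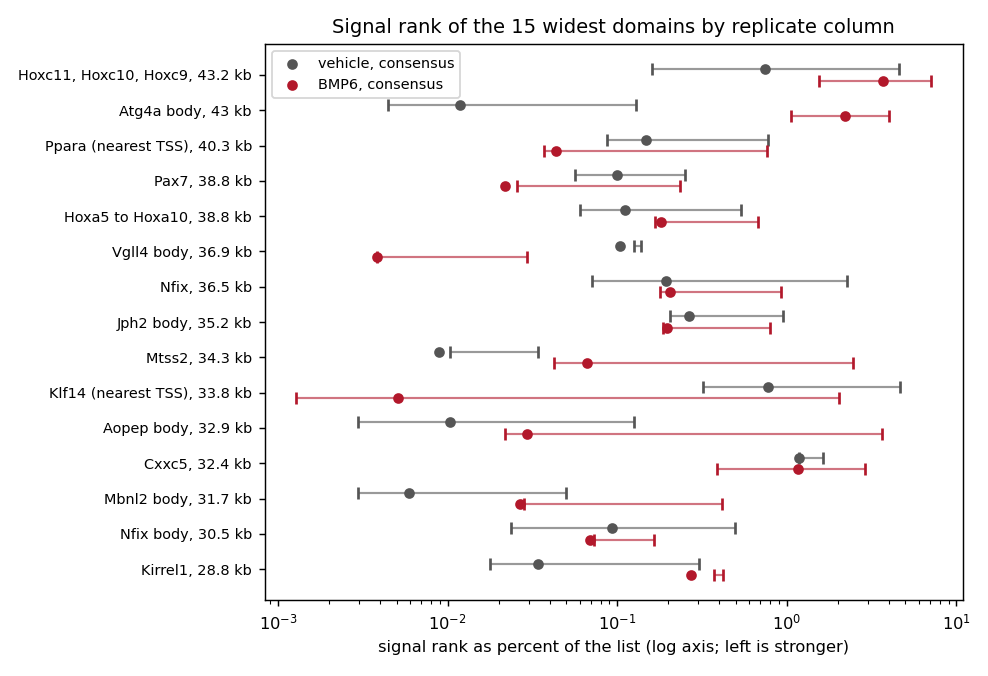
Signal rank of the 15 widest domains as a percentage of the list (log axis, left is stronger), for vehicle (grey) and BMP6 (red). Dots are the consensus peak, bars with ticks span the 2 replicate columns of each condition; the bars of 11 domains overlap, those of Atg4a, Mtss2 and Kirrel1 lie lower with BMP6 and those of Vgll4 higher.

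SMAD peaks were far more frequent in domains than in narrower H3K27ac peaks. With BMP6, 331 of 422 domains (78.4%, 95% Wilson interval 74.3 to 82.1) held a pSMAD1/5/9 peak, against 8.85% of all vehicle H3K27ac peaks and 47.2% of those of 5 to 10 kb. With vehicle 135 domains (32.0%) did, against 1.29% of all. SMAD4 peaks lay in 378 domains (89.6%) with BMP6, against 14.2% of all and 61.4% of those of 5 to 10 kb. With vehicle they lay in 350 (82.9%), against 9.87% and 50.9%. A wider peak has more room, so densities are set beside these shares. Per 10 kb of H3K27ac, pSMAD1/5/9 peaks with BMP6 numbered 0.140 in peaks under 1 kb, 1.00 in those of 5 to 10 kb, 1.18 in domains under 20 kb and 1.214 in those of 20 kb or more. With vehicle the densities were 0.00654, 0.180, 0.264 and 0.411 in the same classes. SMAD4 density with BMP6 went from 0.387 to 1.51, 1.76 and 1.74, and with vehicle from 0.208 to 1.14, 1.48 and 1.56. These densities were not tested.

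**Figure D3:**
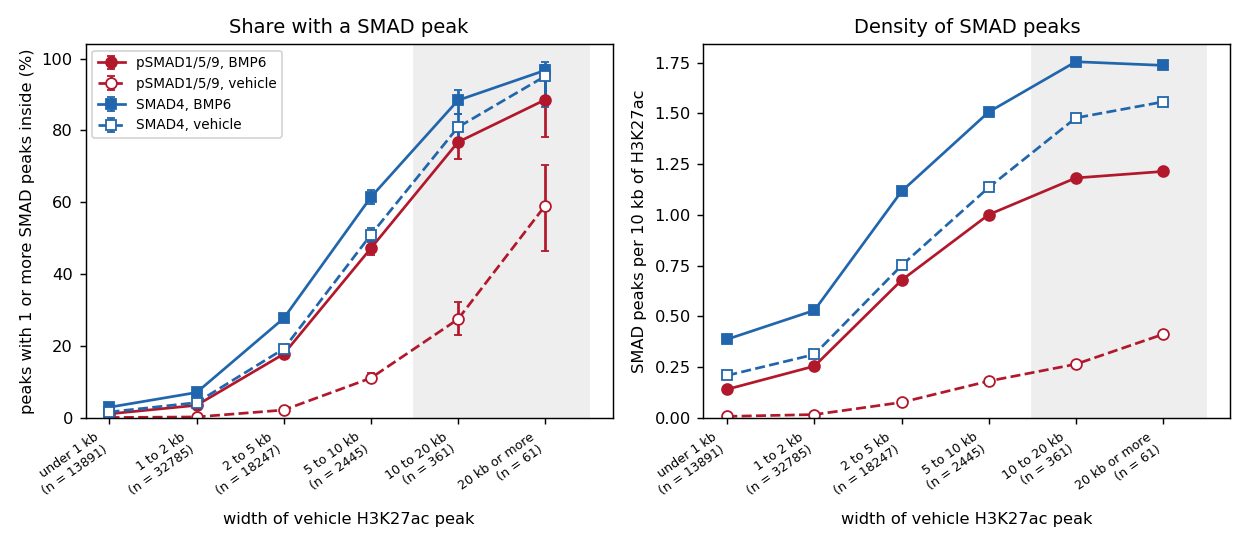
Share of vehicle H3K27ac peaks with 1 or more SMAD peaks inside (left, %, bars are 95% Wilson intervals) and SMAD peaks per 10 kb of H3K27ac (right), by peak width, for pSMAD1/5/9 (red) and SMAD4 (blue), with BMP6 (filled, solid) and vehicle (open, dashed). The shaded classes are the 361 and 61 broad domains; shares reach 88.5% and 59.0% for pSMAD1/5/9 in domains of 20 kb or more with BMP6 and vehicle.

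The number of pSMAD1/5/9 peaks in domains was 737 with BMP6 and 187 with vehicle, a ratio of 3.94 (95% interval 3.36 to 4.63, counting error only). Over the whole lists the ratio was 7.73 (7.23 to 8.27), and in H3K27ac peaks of 5 to 10 kb 5.55 (4.89 to 6.29). With only peaks at an IDR (the irreproducible discovery rate between replicates) of at most 0.01, the ratio was 8.72 in domains, 27.5 in H3K27ac peaks of 5 to 10 kb and 26.1 over the whole lists. Domains thus held 19.7% of the 949 vehicle peaks and 10.0% of the 7339 BMP6 peaks. For SMAD4 the numbers were 1084 and 928, a ratio of 1.17 (1.07 to 1.28) against 1.499 (1.46 to 1.54) for the whole lists. More pSMAD1/5/9 peaks with BMP6 than with vehicle were found in 299 domains (70.9%), against 8.1% of all vehicle H3K27ac peaks. An equal number above 0 was found in 31 domains, fewer in 4 and none in either in 88. For SMAD4, 184 domains had more with BMP6, 97 fewer and 112 an equal number, against 8.12% and 3.13% of all peaks with more and fewer. These shares are not matched for width. Of all vehicle H3K27ac peaks, most of them far narrower, only 8.85% held a pSMAD1/5/9 peak with BMP6 and 14.2% a SMAD4 peak. In 199 domains pSMAD1/5/9 was listed with BMP6 only, and 177 of these (88.9%) held a SMAD4 peak with vehicle, against 82.9% of all domains.

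The 10 domains with the most pSMAD1/5/9 peaks with BMP6 were chosen on that count, which favours more peaks with BMP6 than with vehicle, so their numbers are a description. At the top were those of Iffo1 and Gapdh, with 10 pSMAD1/5/9 peaks with BMP6 and 4 with vehicle, and of Pax7, with 9 and 5. Midn and Cirbp, the latter a cold-inducible RNA-binding protein gene, shared a domain with 8 and 5, and Lmna had 8 and 3. The domain nearest to Irf2bpl had 8 and 1, that of Plec, a cytoskeletal linker gene, 7 and 5, and that nearest to Sspn, which encodes a protein of the dystrophin complex, 7 and 1. Vgll4 had 6 and 0, Jph2 6 and 3, and Hspg2, the gene of the basement membrane proteoglycan perlecan, 6 and 2. A further 5 domains also held 6 pSMAD1/5/9 peaks with BMP6 (Nfic, Ccn4, Anxa2, Id3 and Junb, the first 3 named after their values were seen), and ties were settled by width. SMAD4 peaks, which were not used to choose these domains, numbered 11 and 10 at Gapdh, 14 and 12 at Pax7, 11 and 8 at Lmna, the same number in both conditions at Cirbp (8), Irf2bpl (6), Plec (9) and Vgll4 (5), and fewer with BMP6 at Sspn (4 and 6).

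**Figure D4:**
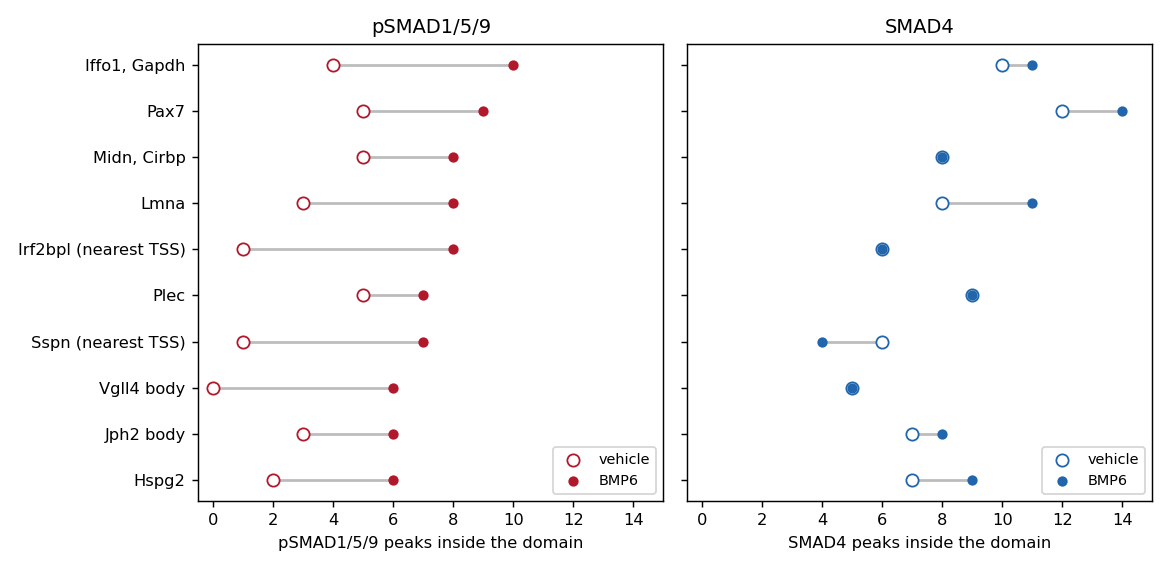
Number of pSMAD1/5/9 peaks (left) and SMAD4 peaks (right) inside the 10 domains with the most pSMAD1/5/9 peaks with BMP6, for vehicle (open) and BMP6 (filled). They held 0 to 5 pSMAD1/5/9 peaks with vehicle and 6 to 10 with BMP6, the count they were chosen on (ties by width); SMAD4 numbers, not used in the choice, were equal in 4 and lower with BMP6 in 1.

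In the domains of myogenic regulators pSMAD1/5/9 was unevenly placed. With BMP6, 6 of these 11 domains held a pSMAD1/5/9 peak and 5 held more than with vehicle, against 78.4% and 70.9% of all 422 domains. Those with more included Pax7, Mef2d (3 with BMP6 and 0 with vehicle), Itga7 (3 and 0) and Runx1 (2 and 0). Myog held 1 with each. The Myf5 and Myf6 domain, the strongest of the vehicle list, held no pSMAD1/5/9 peak in either condition and 3 SMAD4 peaks with BMP6 and 4 with vehicle. Pax3 held no SMAD peak of any list. The domains at the TSS of Nfix and of Tcf4, which encodes an E protein, each held 1 pSMAD1/5/9 peak with vehicle and none with BMP6. Of all 422 domains only these, the Zeb2 domain and a domain in the body of Itgb6 held fewer with BMP6. The last 2 were named after their values were seen. The other Nfix domain, in the body of the gene, held 4 with BMP6 and 1 with vehicle.

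The 4 domains of BMP pathway genes held more pSMAD1/5/9 peaks with BMP6, as did 70.9% of all domains. Id1 held 3 and 0, Id2 2 and 1, Id3 6 and 1, and Smad7 3 and 0. Their SMAD4 peaks numbered 5 with BMP6 and 4 with vehicle at Id1, 5 and 2 at Id2, 6 and 5 at Id3, and 4 and 1 at Smad7. Notch3 held 1 pSMAD1/5/9 peak in both conditions and 5 SMAD4 peaks with BMP6 against 1 with vehicle. The 4 domains of immediate early genes also held more with BMP6, again beside 70.9% of all domains, led by Junb, an AP-1 subunit, with 6 and 1; Zfp36, an mRNA decay factor, had 4 and 3, Fosl2 2 and 1, and Klf6 1 and 0. Of the matrix genes, Sparc and Bgn had 1 and 0. In the 9 domains of actin cytoskeleton and adhesion genes the number was higher with BMP6 in 7. Vegfa held no pSMAD1/5/9 peak and 3 SMAD4 peaks with BMP6 only.

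Domains with a TSS and without one both held SMAD peaks. With BMP6, pSMAD1/5/9 peaks lay in 83.7% of the 153 domains with a TSS and 75.5% of the 269 without, at 1.41 and 1.06 peaks per 10 kb. With vehicle the shares were 41.2% and 26.8%. In domains, 18.9% of the BMP6 list's pSMAD1/5/9 peaks lay within 2 kb of a canonical protein-coding TSS, against 28.6% in H3K27ac peaks of 5 to 10 kb. Peaks in domains were also stronger and wider. Their median rank stood at 30.7% of that list, against 39.9% in peaks of 5 to 10 kb, and their median width was 711 bp against 630 bp. Of the 100 strongest pSMAD1/5/9 peaks, 32 with BMP6 and 43 with vehicle lay in domains. Only 23 domains had no SMAD peak in any of the 4 lists, and 128 had peaks in all 4.

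Because domains were chosen from H3K27ac alone, the SMAD lists could be compared inside and outside them. In domains, 24.6% (95% Wilson interval 21.6 to 27.8) of the 737 pSMAD1/5/9 peaks listed with BMP6 overlapped a vehicle pSMAD1/5/9 peak, against 16.2% (14.5 to 18.1) of 1592 in H3K27ac peaks of 5 to 10 kb and 10.2% (9.53 to 11.02) of 6420 in all peaks under 10 kb. Both differences passed Fisher's exact test over peaks (two-sided, Benjamini-Hochberg adjusted over 8 tests, adjusted p = 4.46e-06 and 4.61e-24). A vehicle SMAD4 peak was overlapped by 75.7% (72.5 to 78.7) of the same 737 peaks, against 67.3% and 56.6% (Fisher's exact test, adjusted p = 4.77e-05 and 7.28e-24). Overlap with a SMAD peak of the vehicle lists was thus more frequent among pSMAD1/5/9 peaks in domains than in narrower H3K27ac peaks. The vehicle lists come from separate cultures, not from the same cells before BMP6 was added. The tests did not adjust for the larger width and signal of the peaks in domains (median width 711 bp against 630 bp in peaks of 5 to 10 kb). With an overlap of at least 50% of both peaks, the shares fell in domains and in peaks of 5 to 10 kb. They were 18.45% and 11.87% for vehicle pSMAD1/5/9, and 57.1% and 51.5% for vehicle SMAD4. For vehicle pSMAD1/5/9, the odds ratio of domains over peaks of 5 to 10 kb was 1.68 under both settings. For vehicle SMAD4 it was 1.25, against 1.51 with any overlap. Peaks are not independent replicates and neighbours in a domain share libraries and chromatin, so these p-values are too small as measures of the spread between cultures.

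The shares were also compared for SMAD4. Of 1084 SMAD4 peaks of BMP6-stimulated cells in domains, 62.5% (59.6 to 65.4) overlapped a vehicle SMAD4 peak, against 57.3% of 2398 in peaks of 5 to 10 kb and 46.4% of 11007 in all peaks under 10 kb (Fisher's exact test, adjusted p = 0.00476 and 1.03e-23). A pSMAD1/5/9 peak of the same cells was overlapped by 59.2% (56.3 to 62.1), against 55.4% and 43.8% (Fisher's exact test, adjusted p = 0.0353 and 5.06e-22). Against peaks of 5 to 10 kb, the SMAD4 differences did not hold under several settings: without the SMAD peaks that lay within 2 kb of a TSS, adjusted p was 0.0607 and 0.147, and with an overlap of at least 50% of both peaks 0.239 and 0.374. The pSMAD1/5/9 differences passed under every alternative run, none of which separated the SMAD replicates.

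**Figure D5:**
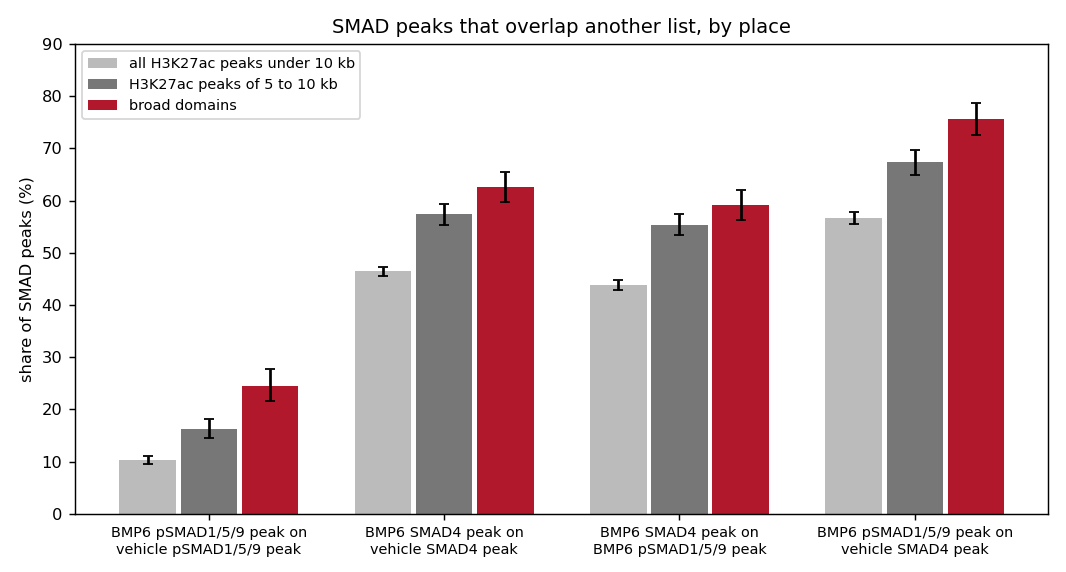
Share of SMAD peaks (%) that overlap a peak of another list, for SMAD peaks in broad domains (red), in vehicle H3K27ac peaks of 5 to 10 kb (dark grey) and in all vehicle H3K27ac peaks under 10 kb (light grey); bars show 95% Wilson intervals. The share in domains is the highest in all 4 comparisons, from 24.6% to 75.7%.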

How the data were processed

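CUT&Tag lists of mouse MuSCs for H3K27ac, SMAD4 and pSMAD1/5/9 were used from 12 of 14 samples, grouped by antibody and treatment as labelled, and 2 no-antibody controls were not used here. Per the methods and labels, the authors brought the libraries of an antibody to the same number of reads, aligned with Bowtie2 2.5.4 (GRCm39), filtered with SAMtools 1.21, called peaks per replicate with JAMM and kept those at an IDR of at most 0.05. The deposited signal of a peak is a score of the peak caller with no fixed range, and in these lists the sum of both replicates. The deposited IDR is given as −log10 of the value. The lists hold no reads per peak, depth is therefore unknown, and replicate columns carry no number. Signal was compared only as rank within a list.

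The members and gene lists were chosen with earlier results of these data known. The domains named were the 15 widest, the 10 with the most pSMAD1/5/9 peaks with BMP6 (ties by width), those with the TSS of a listed gene, and 3 on either side of the threshold. Some listed genes are not reported here by name. Inside means an overlap of at least 1 bp. Genes are the canonical transcripts of 21757 protein-coding genes of GENCODE M39. A domain was named after the genes with a TSS in it, else the gene body it overlaps most, else the nearest TSS. Fisher's exact test was two-sided, and intervals cover counting error only. Python 3.11.15, pandas 2.3.3, numpy 2.4.6, scipy 1.17.1, pysam 0.24.0 and matplotlib 3.10.9 were used. On simulated data, 600 of 600 planted overlaps were found, and at p under 0.01 Fisher's exact test found 200 of 200 differing pairs of shares and 8 of 1000 equal pairs.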

Additional observations from a re-analysis of the deposited data

How the results depend on the processing

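Both pSMAD1/5/9 shares passed Fisher's exact test in all 13 alternatives against both comparators. All 52 values against peaks under 10 kb did so, with a largest adjusted p of 2.42e-09. None of the alternatives separated the SMAD replicates. The settings on replicate columns changed only the H3K27ac width that chose the domains. With the summit required inside, the pSMAD1/5/9 shares in domains stayed at 24.6% and 75.7%. Of the 52 values against peaks of 5 to 10 kb, 44 passed and 8 did not, all for SMAD4, and none changed direction. The share of SMAD4 peaks on a vehicle SMAD4 peak was 44.7% (Fisher's exact test, adjusted p = 0.239) with at least 50% of both peaks overlapping and 62.5% (0.0607) without SMAD peaks near a TSS. The share on a pSMAD1/5/9 peak was 43.4% (0.374) and 57.5% (0.147) under these settings, 59.5% (0.171) at 15000 bp, 58.9% (0.102) with the width reached in both replicate columns, and 59.0% to 59.1% with a single replicate column (0.0701 to 0.0851).

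At an IDR of 0.01 the BMP6 over vehicle ratio in domains was 8.72 for pSMAD1/5/9 (26.1 for the whole lists) and 1.34 for SMAD4 (1.77), and 61.6% of domains held a pSMAD1/5/9 peak. There were 812 domains at 8000 bp, 133 at 15000 bp, 1351 with peaks under 1000 bp apart merged and 688 from the BMP6 list. The share with a pSMAD1/5/9 peak was then 68.8%, 86.5%, 59.2% and 73.8%; it was 69.9% without SMAD peaks near a TSS and 61.8% in the stronger 50% of each SMAD list, an alternative added after seeing the data. Merging gave a pSMAD1/5/9 ratio of 4.74. The share with a main peak of the same minimum width in the other condition's list was 90.2% at 15000 bp, 52.0% from the BMP6 list and 43.0% after merging, and 94.8% by total length covered. The share with a TSS was 45.1% at 15000 bp, 58.8% with all transcripts and 52.6% with lncRNA genes. The cause of these shifts was not tested beyond what each setting changes. No paired analysis was possible because each list is 1 consensus of both replicates and its columns carry no replicate number.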
